A study of Mus musculus with 8 samples.

Results

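The connexin genes of the epidermis measured here were Gja1, Gjb2, Gjb5 and Gjb6. Their members were all probesets annotated to exactly 1 of these 4 symbols, which gave 9 of the 34945 non-control probesets with a single gene symbol: 6 for Gja1 and 1 each for Gjb2, Gjb5 and Gjb6. All 9 were kept, with no filter on low signals. Signals came from dorsal skin of wild-type mouse embryos, taken at 3 embryonic stages, E14.5 (2 arrays), E16.5 (3 arrays) and E18.5 (3 arrays), in a series on gene regulation during epidermal differentiation. No treatment or mutation distinguished the groups, and strain, sex and pooling were not given in the sources used here. Whether each array had its own animal is not stated, and p-values here reflect only the variation among these samples, which may be technical.

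Connexins are membrane proteins that assemble into hemichannels. Hemichannels of neighbouring cells dock into gap junctions, through which ions, metabolites and second messengers pass from cell to cell. Keratinocytes express several connexins in layer-dependent combinations, and human mutations in GJB2, GJB6 and GJA1 cause inherited skin disorders, several of them together with hearing loss. Gja1 encodes Cx43, which is also made by fibroblasts, smooth muscle and endothelium. Gjb2 encodes Cx26, Gjb6 encodes Cx30 and Gjb5 encodes Cx31.1.

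The arrays of different stages were not alike in their controls. For beta-actin, the control probeset at the 3′ end gave 6.49 and 6.91 times the signal of the one at the 5′ end on the E14.5 arrays, but 1.11 to 1.14 times on E16.5 arrays and 1.35 to 1.37 times on E18.5 arrays. Background, set for each array at the 95th percentile of 78 olfactory and vomeronasal receptor probesets, lay at 44.2 and 46.0 on the E14.5 arrays, between 35.9 and 53.8 on E16.5 arrays and between 62.6 and 92.7 on E18.5 arrays. The E16.5 and E18.5 arrays also did not overlap in either measure. Embryonic stage and array preparation therefore cannot be told apart in any comparison of stages. The E14.5 arrays differed most in the beta-actin ratio, so E18.5 against E16.5 is given first. Epidermal identity was plain in the keratins: Krt5, a basal keratin, averaged 17888 at E16.5 and 21063 at E18.5, and Krt10, a suprabasal one, 29342 and 38806.

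Between E16.5 and E18.5 the connexins moved in different directions. Gja1 rose on 4 of its 6 probesets, by 1.56-fold to 3.63-fold, while Gjb2 fell 2.17-fold and Gjb6 fell 1.71-fold. Gjb5 was not called, with a mean signal of 981 ± 216 at E18.5 and 989 ± 158 at E16.5 (SD, n = 3 each). In limma's fit of all 34945 probesets 4 of the 9 members were called higher and 2 lower, at a Benjamini-Hochberg adjusted p under 0.05, against 6.27% of all probesets called higher and 4.44% called lower. The 6 Gja1 probesets read 1 gene, so their calls are not separate evidence. The arrays of the stages did not overlap for 6 of the 9 members, which held for 36.8% of all probesets. Calls of either direction made up 10.7% of all probesets, and 58.6% of them were higher, against 38.5% after each array was centred on its median. That centring moved the median change of all probesets to 0.01, against 0.12 without it.

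**Figure D1:**
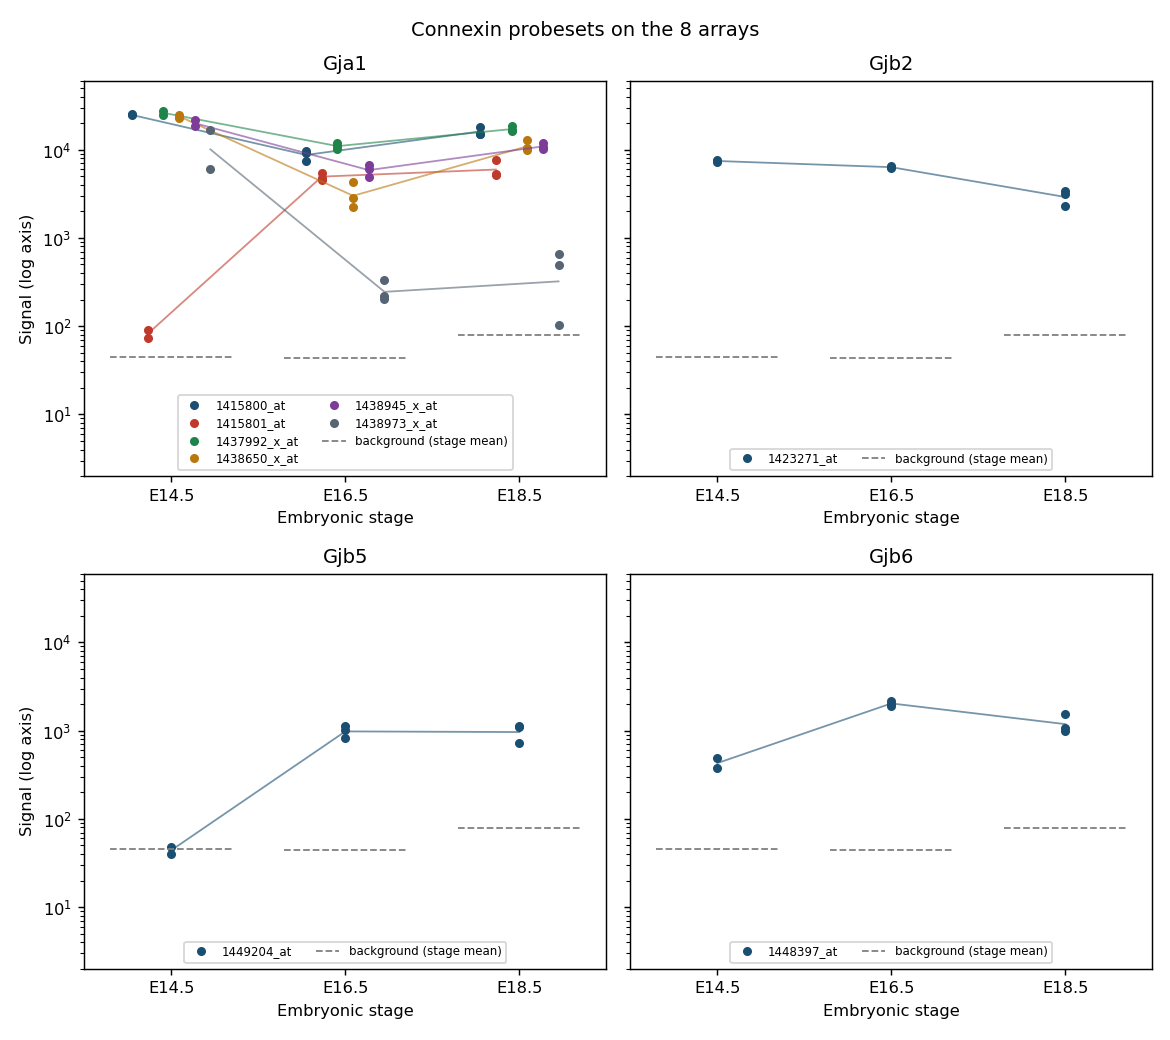
Signal of the 9 connexin probesets on each of the 8 arrays, by embryonic stage, on a log axis; points are arrays, lines join geometric stage means and dashed lines mark the mean background of a stage. Gja1 probesets lie far apart at E14.5, from 74.2 to 27596, Gjb2 is lowest at E18.5, Gjb5 sits at background at E14.5 and Gjb6 is highest at E16.5.

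Gja1, the most widely expressed connexin of skin, was read by probesets that agreed between E16.5 and E18.5. Probeset 1437992_x_at, with the highest mean of the 6, gave 24802 and 27596 at E14.5, 10982, 11832 and 10180 at E16.5 and 16627, 18536 and 16275 at E18.5. Probeset 1415800_at gave 24437 and 25071 at E14.5, 9259, 9675 and 7404 at E16.5 and 15189, 18309 and 15011 at E18.5. On both, every E18.5 array lay above every E16.5 array and below both E14.5 arrays. The log2 change at E18.5 relative to E16.5 was 0.64 ± 0.10 for 1437992_x_at (SE, n = 3 each, limma adjusted p = 0.00454) and 0.88 ± 0.13 for 1415800_at (limma adjusted p = 0.00269). With quantile normalization the change of 1437992_x_at was 0.37 (limma adjusted p = 0.0289), and with the median of all 6 probesets that of the gene was 1.01 (limma adjusted p = 0.00224).

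The size of the Gja1 rise depended on the probeset. The largest was at 1438650_x_at, which gave 10392, 12816 and 9799 at E18.5 and 2829, 4283 and 2231 at E16.5, a log2 change of 1.86 ± 0.21 (SE, n = 3 each, limma adjusted p = 0.000706). Probeset 1438945_x_at had a log2 change of 0.89 ± 0.13 (limma adjusted p = 0.0032), with 10096 to 12041 at E18.5 and 4919 to 6736 at E16.5. The remaining pair was not called. Probeset 1415801_at gave 5369, 7699 and 5122 at E18.5 and 4585, 5505 and 4812 at E16.5, with overlapping arrays and a log2 difference of 0.27 (95% interval -0.10 to 0.63, limma adjusted p = 0.329). Probeset 1438973_x_at was the dimmest, at 653, 104 and 493 at E18.5 and 201, 334 and 218 at E16.5, with a log2 difference of 0.40 (95% interval -0.88 to 1.67, limma adjusted p = 0.692). Without E18.5 replicate 1 that difference was -0.08, and without E18.5 replicate 2 it was 1.16. The suffix _x_at marks probesets holding probes that also match other sequences, and it is carried by 4 of the 6.

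The arrays of a stage ranked alike on these probesets. E16.5 replicate 2 was the highest of its stage on all 6 Gja1 probesets, and E18.5 replicate 2 the highest on 5 of 6 and the lowest on 1438973_x_at. The 4 calls kept their direction and stayed under an adjusted p of 0.05 with each array left out and in the other refits tried, and 1 of the 4, 1438650_x_at, also changed by at least 2-fold.

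Gjb2 and Gjb6 are neighbours. In the RefSeq order of assembly GRCm38.p6 they lie on chromosome 14 with no other protein-coding gene between them, Gja3 on the outer side of Gjb2 and Cryl1 on the outer side of Gjb6. Both fell between E16.5 and E18.5, so the 250 bases before the start of each are printed here from RefSeq (GRCm38.p6), 5′ to 3′ on the strand of the gene, together with those of Gja1, which rose. Capitals mark matches, on either strand, to GGGCGG, known as the GC box, to TGANTCA, the AP-1 site, to CCAAT, to TATAAA, the core promoter element bound by TFIID, or to AACNGGTT, the site of Grainyhead factors.
Gjb2, chr14:57104703-57104952, minus strand: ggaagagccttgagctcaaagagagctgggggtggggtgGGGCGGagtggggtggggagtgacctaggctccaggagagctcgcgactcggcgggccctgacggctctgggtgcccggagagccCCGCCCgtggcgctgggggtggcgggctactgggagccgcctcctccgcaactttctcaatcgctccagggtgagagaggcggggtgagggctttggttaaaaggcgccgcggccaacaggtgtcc
Gjb6, chr14:57133612-57133861, minus strand: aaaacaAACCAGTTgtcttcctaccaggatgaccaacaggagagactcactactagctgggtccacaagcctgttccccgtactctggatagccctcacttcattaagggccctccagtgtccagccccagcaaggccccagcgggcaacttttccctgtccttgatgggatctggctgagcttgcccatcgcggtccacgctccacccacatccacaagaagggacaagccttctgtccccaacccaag
Gja1, chr10:56377050-56377299, plus strand: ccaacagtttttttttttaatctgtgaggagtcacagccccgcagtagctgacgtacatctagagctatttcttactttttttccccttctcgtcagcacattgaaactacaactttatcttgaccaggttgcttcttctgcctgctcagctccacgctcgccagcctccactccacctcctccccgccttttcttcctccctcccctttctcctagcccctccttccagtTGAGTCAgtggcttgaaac

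The 3 windows shared none of the 5 motifs. Gjb2 held 2 GC boxes, which occur in 32.7% of 32851 RefSeq promoter windows of the same length, and 69.2% of its bases were G or C, against a median of 52.4% (quartiles 45.2% and 61.2%). Gjb6 held 1 Grainyhead match, AACCAGTT, found in 1.79% of the windows as a motif, and 56.8% G or C. Gja1 held 1 AP-1 match starting 19 bases before the start, a motif of 6.75% of the windows. The window of Gjb5, not printed, held 1 match to CCAAT and 1 to TATAAA on the opposite strand, which occur in 33.8% and 12.4% of the windows. Letters in a window describe the sequence and show no binding.

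Gjb2 encodes Cx26, which in adult mouse skin is largely a connexin of hair follicles and of injured or hyperproliferative epidermis. Its probeset gave 7557 and 7340 at E14.5, 6316, 6186 and 6512 at E16.5 and 3392, 3132 and 2314 at E18.5. Every E18.5 array lay well below the others, and the E16.5 arrays differed among themselves by little. The signal fell to 2946 ± 562 at E18.5, against 6338 ± 164 at E16.5 (SD, n = 3 each), a log2 change of -1.12 ± 0.14 (SE, limma adjusted p = 0.00127), lower in 3 of 3 arrays. In the fits without 1 array, and in the other alternatives, the change stayed between -1.24 and -0.96 (limma adjusted p up to 0.0181).

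Gjb6, encoding Cx30, was highest at E16.5. It gave 376 and 488 at E14.5, 1907, 2016 and 2190 at E16.5 and 985, 1558 and 1083 at E18.5, and no array of a stage overlapped another stage. The signal was 1209 ± 307 at E18.5, against 2038 ± 142 at E16.5 (SD, n = 3 each), a log2 change of -0.77 ± 0.18 (SE, limma adjusted p = 0.0239). This call rested on all arrays being present: without E16.5 replicate 1, 2 or 3 or E18.5 replicate 1 or 3 the adjusted p from limma was 0.0656, 0.0823, 0.11, 0.0634 and 0.0534, with log2 changes from -0.82 to -0.64. It was also lost without a variance trend (limma adjusted p = 0.0686), and it was kept without E18.5 replicate 2 and without the E14.5 arrays.

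Gjb5, encoding Cx31.1, a connexin of the upper epidermal layers in rodents, showed no detectable change over this interval. Its probeset gave 1086, 1125 and 732 at E18.5 and 822, 1006 and 1138 at E16.5, with fully overlapping arrays. The log2 difference was -0.02 with a 95% interval of -0.48 to 0.43 (limma adjusted p = 0.955), which leaves room for a change of either sign.

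The outer neighbours of the chromosome 14 pair, looked up after the members' values had been seen, were measured too. Cryl1, which encodes a lambda-crystallin-like enzyme, averaged 627 at E18.5 and 969 at E16.5, a log2 difference of -0.63 that was not called (limma adjusted p = 0.0569). Gja3, a lens connexin, averaged 198 at E18.5 and 194 at E16.5, with a log2 difference of 0.03 (limma adjusted p = 0.952). A dimmer Gja3 probeset, 1422339_at, averaged 59.4 at E18.5 and 106 at E16.5, with no overlap of arrays and no call (log2 -0.80, limma adjusted p = 0.179).

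**Figure D2:**
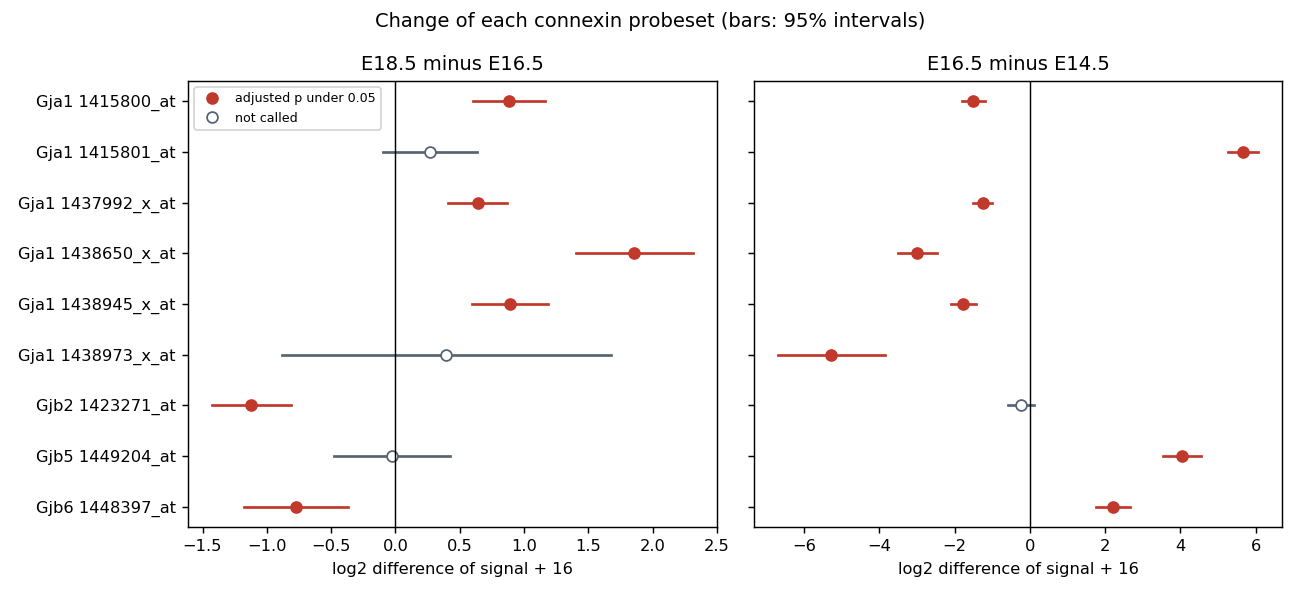
Log2 difference of signal + 16 for each of the 9 connexin probesets, E18.5 minus E16.5 on the left and E16.5 minus E14.5 on the right, with 95% intervals from limma; filled points passed an adjusted p of 0.05. On the left 4 Gja1 probesets lie above 0 and Gjb2 and Gjb6 below it; on the right the Gja1 probesets range from -5.27 to 5.66. The panels share the E16.5 arrays and have different horizontal scales.

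The differences between members over E16.5 to E18.5 were measured within each array, as the log2 ratio of a pair of genes, which removes any factor common to an array. All 6 pairs were compared. The ratio of Gja1 to Gjb2 was 1.76 higher at E18.5 than at E16.5 on the log2 scale, and that of Gja1 to Gjb6 was 1.41 higher. The ratio of Gja1 to Gjb5 was 0.66 higher, that of Gjb5 to Gjb6 was 0.75 higher and that of Gjb2 to Gjb5 changed by -1.10. In these 5 pairs the 3 arrays of one stage did not overlap those of the other, and each gave p = 0.1 in an exact two-sided permutation test, the smallest that 3 against 3 arrays allow (0.12 adjusted over the 6 pairs). The ratio of Gjb2 to Gjb6 changed by -0.35, with overlapping arrays (exact permutation p = 0.4, also 0.4 adjusted). None of the 6 passes a threshold of 0.05, and none could.

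Markers of the cell types that dorsal skin holds also differed over this interval. Beside the counts below, 6.27% of all probesets were called higher and 4.44% lower. In a bulk sample fewer cells of a type and less RNA per cell cannot be told apart. The summed signal of 7 basal epidermal markers was 57878 to 69738 at E18.5 and 50625 to 56687 at E16.5, and 1 of them, Trp63, rose. That of 7 dermal fibroblast markers was 125987 to 153417 at E18.5 and 109783 to 117419 at E16.5, with 2 members called higher, Col1a2 and Col3a1. Hair follicle markers summed to 14707 to 42005 at E18.5 and 3430 to 4182 at E16.5, with all 7 called higher. Adipocyte markers summed to 18857 to 27642 at E18.5 and 4946 to 5597 at E16.5, with 4 of 4 called higher. The sums of these 4 lists and the 4 called Gja1 probesets were higher at E18.5. So were the sums of melanocyte markers, at 6978 to 11484 against 2913 to 4215 at E16.5. Macrophage markers were higher too, at 5071 to 8171 against 3793 to 4121.

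Several other lists were lower, as Gjb2 and Gjb6 were, and some were mixed or higher. Periderm and simple epithelium markers summed to 598 to 1055 at E18.5 and 1350 to 1937 at E16.5, with Krt4, Krt19 and Krt7 called lower among 5. Of 6 granular and cornified markers, Ivl and Tgm3 fell and Flg rose, with sums of 58792 to 63626 at E18.5 and 46229 to 59006 at E16.5. Among 5 suprabasal markers 1, Krt77, fell. Red cell markers were lower for 3 of 4, melanocyte markers higher for 3 of 4 and macrophage markers higher for 2 of 4. Among 6 skeletal muscle markers 2, Myog and Myod1, were called lower. The skeletal muscle sums overlapped, at 45429 to 70874 at E18.5 and 40686 to 45875 at E16.5. No member was called among 5 of smooth muscle and 2 of Schwann cells. Endothelial markers summed to 4342 to 4619 at E18.5 and 5066 to 5979 at E16.5, with Cdh5 lower. As above, 6.27% of all probesets were called higher and 4.44% lower between E16.5 and E18.5. None of the markers listed was at or below background on all 8 arrays. The part of any of these shifts in the connexin changes was not tested.

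Between E14.5 and E16.5 the Gja1 probesets contradicted each other. Relative to E14.5, 5 of them were called lower at E16.5, with log2 changes from -1.25 to -5.27, and 1415801_at was called higher by 5.66 ± 0.18 (SE, n = 3 and 2, limma adjusted p = 1.67e-08). That probeset gave 4585, 5505 and 4812 at E16.5 and 90.5 and 74.2 at E14.5, where the other 5 gave between 6040 and 27596. Probeset 1415800_at, annotated to the same transcript accession as 1415801_at, had a log2 change of -1.50 ± 0.14 (limma adjusted p = 5e-06). Probeset 1438973_x_at gave 201, 334 and 218 at E16.5 and 16806 and 6040 at E14.5. No direction of change can therefore be given for Gja1 over this interval.

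Such disagreement was common in comparisons with E14.5. Among 5068 genes with 2 or more probesets called between E14.5 and E16.5, 50.1% had calls in opposite directions, against 16.7% of the 498 such genes when E18.5 was set against E16.5. Ctnnb1 showed it as well: 1430533_a_at averaged 4868 at E16.5 and 153 at E14.5, while 1420811_a_at averaged 13695 at E16.5 and 22496 at E14.5. The shift in the 3′ over 5′ control ratios accompanied these differences, and its part in them was not tested.

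The single probesets of the other members gave these values over the same interval. Gjb5 was at background at E14.5, with 40.3 and 48.2 against array backgrounds of 44.2 and 46.0, and averaged 989 ± 158 at E16.5 (SD, n = 3), at least 21.2-fold higher when the E14.5 array below its background is set to that background. The fit on log2(signal + 16), a scale that understates the change of so dim a signal, gave 4.05 ± 0.23 (SE, limma adjusted p = 1.51e-07). Gjb6 was 4.61-fold higher at E16.5, at 2038 ± 142 against 432 ± 78.9 at E14.5 (SD, n = 3 and 2, log2 2.21 ± 0.20 SE, limma adjusted p = 4.22e-06). Its log2 change was 1.76 under quantile normalization and 1.25 under median centring, which adds -0.95 to every log2 change over this interval. Gjb2 averaged 6338 ± 164 at E16.5 and 7448 ± 154 at E14.5, a log2 difference of -0.23 (95% interval -0.57 to 0.11, limma adjusted p = 0.225). Under quantile normalization that difference was 0.31 and under median centring -1.18 (limma adjusted p = 0.103 and 0.000129), so neither its sign nor its call is settled. Of all probesets 57.6% were called over this interval, 38.9% higher and 18.7% lower, beside 3 higher and 5 lower among the 9 members. The 5 lower are all probesets of Gja1. The arrays did not overlap for any of the 9 members, nor for 73.7% of all probesets. Under median centring 33.1% of all calls were higher, against 67.5% without it, and the median change of all probesets was -0.57 against 0.38.

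Across the whole period, E18.5 against E14.5, Gjb5 and Gjb6 were higher and Gjb2 lower. Gjb5 was at least 20.9-fold higher at E18.5, and Gjb6 2.70-fold higher (log2 1.43 ± 0.20 SE, n = 3 and 2, limma adjusted p = 0.000112), although under median centring Gjb6 was not called (log2 0.37, limma adjusted p = 0.166). Gjb2 was 2.55-fold lower (log2 -1.35 ± 0.15 SE, limma adjusted p = 2.26e-05), with a log2 change of -0.87 under quantile normalization and -2.42 under median centring. Gja1 was again lower on 5 probesets and higher on 1415801_at. Calls were made for 59.8% of all probesets here, 42.9% higher and 16.9% lower, beside 3 higher and 6 lower among the 9 members. The arrays of E18.5 and E14.5 did not overlap for any of the 9, as for 69.6% of all probesets. In the main fit the order of stage levels was E16.5, E18.5, E14.5 from high to low for Gjb6. For Gjb2 it was E14.5, E16.5, E18.5, of which the first 2 did not differ in the fit. For Gjb5 E16.5 and E18.5 did not differ in the fit and stood above E14.5. The place of E14.5 in these orders cannot be told apart from array preparation. The call of Gjb6 between E16.5 and E18.5 was lost in some refits.

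The second change minus the first, E16.5 to E18.5 less E14.5 to E16.5, was called for each of the 9 members, as it was for 44.9% of all probesets, and for 8 of the 9 under median centring, a check added after the data were seen. It was positive for the 5 Gja1 probesets that were lower at E16.5 than at E14.5. It was negative for 1415801_at, Gjb2, Gjb5 and Gjb6, at -5.40, -0.89, -4.07 and -2.98 on the log2 scale. The value of Gjb2 depends on the scaling, at -1.50 under quantile normalization and -0.051 under median centring (limma adjusted p = 0.000786 and 0.894), so no difference between its changes is settled. For Gjb5 the E14.5 signal lies at background, so its value is not a measured size.

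The rest of the family was read from 13 further connexin and pannexin genes with a probeset of their own. Only 4 were above background on all 8 arrays: Gja3, Gja4, Gjc1 and Panx1. Gja5, Gja10, Gjc3, Gje1, Panx2 and Panx3 were at or below it on all 8, and Gjb1, Gjd2 and Gjd4 exceeded it on 1 or 2 arrays. Between E16.5 and E18.5 limma called 1 of the 13 higher and 0 lower, against 6.27% and 4.44% of all probesets. Their median log2 change of 0.30 was the value of Gja10, whose signals lay at or below background, so it is no measured change. The 4 genes above background on all arrays had log2 differences of 0.03 (Gja3), -0.50 (Gja4), 0.45 (Gjc1) and 0.45 (Panx1). The median of all probesets was 0.12.

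The 1 called higher was Gjc1, encoding a connexin of vascular and cardiac muscle. It gave 457 and 382 at E14.5, 1172, 1249 and 1226 at E16.5 and 1639, 1633 and 1739 at E18.5, so the stages did not overlap. Its log2 change at E18.5 relative to E16.5 was 0.45 ± 0.12 (SE, n = 3 each, limma adjusted p = 0.0412). The second Gjc1 probeset, 1447787_x_at, averaged 602 at E18.5 and 822 at E16.5, and the call was lost with the mean of both and under median centring. Gja4, an endothelial connexin, averaged 369 ± 93.2 at E18.5 and 517 ± 22.6 at E16.5 (SD, n = 3 each, limma adjusted p = 0.176). Panx1, which encodes a channel for ATP release, averaged 621 ± 78.5 at E18.5 and 450 ± 47.3 at E16.5 (limma adjusted p = 0.154). From E14.5 to E16.5 3 of the 13 rose, Gja4, Gjc1 and Panx1, and 1, Panx2, was called lower with all its signals at background. The dimmer Gja3 probeset, 1422339_at, was also called higher (limma adjusted p = 0.000468). It averaged 106 at E16.5 and 8.36 at E14.5, where it lay below background. Of all probesets 38.9% were called higher and 18.7% lower over that interval.

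**Figure D3:**
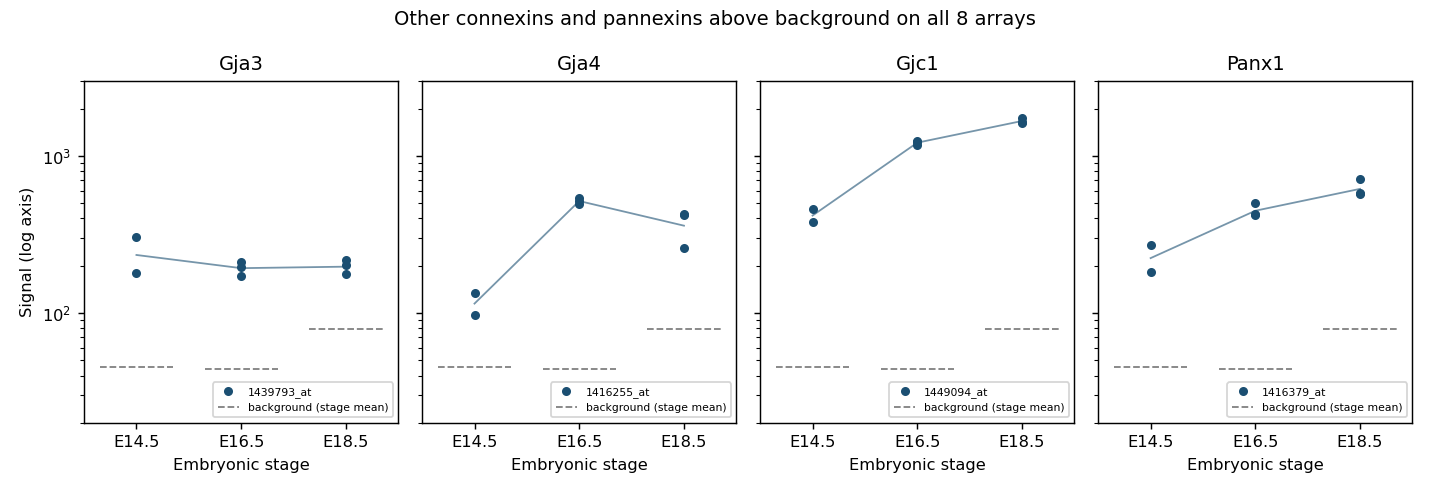
Signal on each of the 8 arrays, on a log axis, of the 4 other connexin and pannexin genes above background on all arrays, by embryonic stage; points are arrays, lines join geometric stage means and dashed lines mark the mean background of a stage. Gjc1 is highest at E18.5, at 1633 to 1739, and Gja4 is highest at E16.5, at 493 to 539. Gja3, drawn at its brighter probeset 1439793_at, overlaps across the stages.

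Of 13 listed genes whose proteins bind, anchor or turn over connexins, 11 were measured. Between E16.5 and E18.5 limma called 3 higher and 1 lower, with no call for the other 7 (median log2 change -0.03). Of all probesets 6.27% were called higher and 4.44% lower. Cdh1, encoding E-cadherin, on whose adhesion gap junction assembly depends, averaged 6772 ± 1032 at E18.5 and 4033 ± 588 at E16.5 (SD, n = 3 each, log2 0.74 ± 0.14 SE, limma adjusted p = 0.0097). Ctnnb1, encoding beta-catenin, rose by 0.54 ± 0.09 on its brightest probeset (limma adjusted p = 0.00463), while its other 2 probesets were not called. Cav1, encoding caveolin, a membrane partner of Cx43, rose by 0.60 ± 0.13 (limma adjusted p = 0.0171). Ctnnd1, encoding the catenin that stabilises cadherins, fell by 0.58 ± 0.13 (limma adjusted p = 0.0184) on 1 of its 3 probesets. Tjp1, whose scaffold protein binds the tail of Cx43, averaged 2749 ± 574 at E18.5 and 3617 ± 58.2 at E16.5 (log2 difference -0.41, limma adjusted p = 0.0905).

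Against E14.5, 4 of these 11 genes were called higher and 5 lower at E16.5. Of all probesets 38.9% were called higher and 18.7% lower over this interval. Dbn1, whose actin-binding product drebrin holds Cx43 at the membrane, was 5.89-fold higher, and Tjp3, encoding a scaffold related to that of Tjp1, was 4.28-fold higher. Nedd4, a ubiquitin ligase acting on Cx43, was 2.65-fold higher and Cav1 1.69-fold higher. Ubqln4, which delivers Cx43 to the proteasome, was 2.47-fold lower, Cdh1 2.08-fold lower and Tjp1 2.07-fold lower. Cnst, encoding consortin, a connexin trafficking receptor, was 1.77-fold lower, and Ctnnb1 1.64-fold lower on its brightest probeset. The other Ctnnb1 probesets were called higher, 1430533_a_at by 28.8-fold and 1450008_a_at by 5.38-fold, so no direction can be given for that gene. Ubqln4's second probeset was not called (limma adjusted p = 0.554).

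The genes with the most similar profiles were found by Pearson's r of log2(signal + 16) over the 8 arrays among 14189 genes whose mean signal was above mean background in at least 1 stage, given here without a test since the arrays fall into 3 stages. For Gja1, taken at 1437992_x_at, they were Snrpe (0.995), Srsf10 (0.994) and Celf1 (0.994). That profile includes the level at E14.5, on which the Gja1 probesets contradicted each other. Those nearest Gjb2 were Rhou (0.993), Cstb (0.992), the protease inhibitor cystatin B, and Psat1 (0.984), a serine synthesis enzyme. Gjb5 was followed by Trappc6a, Sphk1 and Nudt21 (0.998 to 0.999), and Gjb6 by Stam2, Nfe2l3 and Fbxo10 (0.994 to 0.996). High values were not rare: r was above 0.9 for 599 genes with Gja1, 116 with Gjb2, 4123 with Gjb5 and 1870 with Gjb6.

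Over the 6 arrays of E16.5 and E18.5 the nearest genes were others. Gjb6 then ran closest to Atp10b (0.999), Eps8l1 (0.998) and Alox12b (0.997), the last a lipoxygenase of the cornified lipid envelope that averaged 2322 at E18.5 and 6917 at E16.5. For Gjb2 they were Tmem79 (0.998), C130073F10Rik (0.998) and Trim32 (0.997), a ubiquitin ligase. Tmem79, a lamellar granule protein gene, averaged 639 at E18.5 and 1287 at E16.5. C130073F10Rik averaged 24.3 at E18.5, below the array backgrounds of that stage. Gja1 was nearest to E4f1, Plekha6 and Pnpla6 (0.996 to 0.997). For Gjb5, whose stages did not differ here, the best were Sgpp2, Bsn and Psmd8 (0.973 to 0.982). Sgpp2 averaged 53.7 at E16.5 and 53.6 at E18.5, and Bsn 77.7 and 79.5. At E18.5 both lay below or within the range of array backgrounds.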

How the data were processed

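Per the deposited value table, each of 45101 probesets has a signal intensity on a linear scale for each of 8 arrays. Per the submitters' processing notes the authors' software included Affymetrix Expression Console 1.1 and the summary algorithm PLIER 2.0. No source used here gives the background correction or how arrays were normalized. Per the labels' protocols, random-primed targets were labelled with biotin as sense single-stranded DNA, for all 8 arrays. That kind of target is made for whole-transcript arrays, whereas the probe annotation is of a 3′ expression array designed for antisense targets; this conflict was not resolved.

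Probesets were named from the platform annotation supplied (34958 with 1 symbol, 932 with several, 9211 with none), and 34754 gene IDs were found in the RefSeq table of GRCm38.p6. After control probesets (64) were left out, limma 3.58.1 in R 4.3.3 fitted 1 mean per stage to log2(signal + 16) of 34945 probesets over 8 arrays (lmFit, eBayes with a variance trend), adjusted by Benjamini-Hochberg over all. Each adjusted p is from that model. Folds are on the log2(signal + 16) scale, and understate changes of dim probesets. Folds given as at least set the dim signal no lower than background. A gene was represented by its probeset of highest mean. Array number limits the precision, and the test was checked on simulated data.

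Members and lists were chosen with earlier results of these data known. The text names every member probeset, every listed connexin and pannexin that was measured, partners that were called or changed most, and the 3 genes nearest each member by correlation. The second change minus the first was also refitted under both scalings, chosen after seeing the data. Refits used a pseudocount of 1 or 64, quantile normalized signals, arrays centred on their median, a filter on dim probesets, variance settings, array weights, only the stages compared, a fold of 2, each array left out, and gene summaries (1 probeset, mean or median).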

Additional observations from a re-analysis of the deposited data

How the results depend on the processing

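No paired analysis was possible because the labels give no replicate numbers, and the meaning of the number codes in the sample titles, some digits of which recur between stages, is not stated. Of E18.5 against E16.5, the 4 members called higher became 1 with a fold of at least 2, and the 2 called lower became 1 with a fold of at least 2, 1 without a variance trend, and 1 to 2 with single arrays left out, Gjb6 being the one lost. By genes, the 1 higher became 0 with a fold of at least 2, and the 2 lower became 1 with that fold or without a variance trend and 1 to 2 with single arrays left out. Of E16.5 against E14.5, the 1 gene called lower was Gja1 at 1437992_x_at, although the Gja1 probesets contradicted each other there. That count became 2 (with Gjb2) under median centring and with only the stages compared. Of E18.5 against E14.5, the 6 probesets called lower became 3 with a fold of at least 2. The 2 genes lower, Gjb2 and again Gja1 at 1437992_x_at, became 1 with that fold and 1 with the mean of all probesets. The 2 genes higher became 1 under median centring. For the other connexins and pannexins, the 1 higher at E18.5 against E16.5 became 0 under median centring and 0 with the mean of probesets. Their 1 lower at E16.5 against E14.5 became 4 under quantile normalization, 5 under median centring and 2 with the mean of probesets. At E18.5 against E14.5 their 5 higher became 2 and 1, and their 1 lower became 4 and 5, under quantile normalization and median centring. With single arrays left out, the uncalled E18.5 against E16.5 difference of 1438973_x_at ran from -0.082 to 1.16 and that of Gjb5 from -0.15 to 0.17. The uncalled differences that changed sign were those of 1438973_x_at at E18.5 against E16.5 (-0.082 without E18.5 replicate 1), Gjb2 at E16.5 against E14.5 (0.31 under quantile normalization) and Gjb5 at E18.5 against E16.5 (0.051 under quantile normalization, 0.082 without E16.5 replicate 3 and 0.17 without E18.5 replicate 3). The cause of these differences was not tested. Gjb5 at E14.5, below background on 1 of 2 arrays, only bounds the size of a change.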
